A study of Mus musculus with 4 samples.

Results

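The genes described here are 8 genes of sugar entry and glycolysis in mouse liver: the glucose transporter Slc2a2, the regulatory protein gene Gckr, the fructokinase Khk, the phosphofructokinase Pfkl, the bifunctional enzymes Pfkfb1 and Pfkfb3, the dehydrogenase Gapdh and the pyruvate kinase Pklr. They were chosen by symbol in GENCODE M21, and all 8 were found among the 37315 gene identifiers counted. RNA-seq of polyadenylated liver RNA was compared between C57BL/6 wild-type mice (WT) and mice of the same strain with a knockout of Fto (KO), all aged 23 weeks, with 2 libraries per genotype. The product of Fto is an RNA demethylase. The labels name neither sex, diet, feeding state nor the construction of the knockout allele, and do not say that libraries came from separate animals. The p-values therefore rest on differences among 4 libraries that could be technical only.

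The hepatocyte takes up glucose through GLUT2, the low-affinity transporter encoded by Slc2a2. Gckr encodes a regulatory protein of the first step of glucose use in liver, which responds to sugar phosphates. Fructose is phosphorylated by ketohexokinase (Khk), and its carbon enters the pathway below phosphofructokinase. Phosphofructokinase is controlled by fructose 2,6-bisphosphate, which the Pfkfb enzymes make and break down, and pyruvate kinase (Pklr in liver) closes the pathway. Pklr and Khk are known targets of ChREBP, a transcription factor that responds to sugar and is encoded by Mlxipl.

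Total counts were between 39549592 and 44689114 per library. The targeted gene Fto fell by 1.57 on the log2 scale (adjusted p = 0.0109 by the quasi-likelihood test of edgeR, standard error, SE, 0.195), from 41.2 and 33.9 CPM to 13.1 and 12.1 CPM. Hepatocyte markers were abundant in every library, with Alb, the albumin gene, between 53495 and 70110 CPM (counts scaled by library size and TMM). Markers of Kupffer cells, the macrophages of liver, were higher in KO without overlap for 10 of 10, against 21.6% of all tested genes. Their summed levels were 159.7 and 238.9 CPM in WT and 345.6 and 372.0 CPM in KO. Of these 10, 2 were called higher at an adjusted p under 0.05 by edgeR, against 0.961% of all tested genes. The 2 were Marco (adjusted p = 0.0155) and Csf1r (adjusted p = 0.0478). Markers of red blood cells were lower in KO without overlap for 5 of 5 tested, against 20.4% of all tested genes, and none was called. Their sums were 270.0 and 305.0 CPM in WT and 186.1 and 205.5 CPM in KO. The largest part was Alas2, at 156.7 and 183.8 CPM in WT and 122.3 and 134.9 CPM in KO. Its log2 fold change was -0.40, and those of the globin genes ran from -0.71 (Hba-a1) to -0.94 (Hbb-bt). Of the 8 markers of stellate cells, all had a negative log2 fold change (median -0.34), against 49.2% of all tested genes. None was called and 4 were lower in KO without overlap, against 20.4% of all tested genes. The sums were 258.4 and 352.9 CPM in WT and 245.6 and 252.6 CPM in KO. WT replicate 2 was the highest library for 6 of the 8, against 28.6% of all tested genes. The adipocyte marker Adipoq stood apart in the libraries numbered 2, at 70 (WT) and 71 (KO) reads against 1 and 0 in those numbered 1. The part of these markers in the results was not tested. In bulk tissue, fewer cells of a type and less RNA per cell cannot be told apart. Libraries numbered 2 also differed from those numbered 1 with transcript length: number 2 over number 1 had a median log2 ratio of 0.33 (WT) and 0.17 (KO) in the class of shortest protein-coding transcripts, and of -0.44 and -0.39 in the class of longest. Between genotypes these medians were -0.10 and 0.11.

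The sequences before 4 start sites are given because Khk and Gckr had the most negative fold changes, Pfkfb3 was the gene with a higher level in both KO libraries, and Pklr carries the best-known response element of ChREBP. RefSeq windows (build GRCm38.p6) of 250 bases before a start site matched 8 of 8 genes, in 13 windows. Both strands were searched for CACGTG (the E-box core), for the consensus carbohydrate response element (a pair of E-box-like sequences 5 bases apart) and for GTTAAT (a core of the HNF1 motif). Capitals mark the matches, and each window is written 5′ to 3′ on the strand of its gene.
Pklr (chr3:89136373-89136622, plus strand): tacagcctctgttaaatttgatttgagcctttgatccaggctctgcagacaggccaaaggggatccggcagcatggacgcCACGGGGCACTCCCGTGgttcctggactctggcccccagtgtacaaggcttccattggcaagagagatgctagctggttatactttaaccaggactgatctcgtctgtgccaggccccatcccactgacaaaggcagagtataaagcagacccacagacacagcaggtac
Khk (chr5:30921309-30921558, plus strand): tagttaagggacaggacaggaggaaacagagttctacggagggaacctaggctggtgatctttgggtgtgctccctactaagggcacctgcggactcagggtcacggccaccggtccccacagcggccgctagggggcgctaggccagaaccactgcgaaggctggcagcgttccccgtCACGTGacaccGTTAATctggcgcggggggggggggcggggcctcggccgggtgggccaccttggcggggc
Gckr (chr5:31297313-31297562, plus strand): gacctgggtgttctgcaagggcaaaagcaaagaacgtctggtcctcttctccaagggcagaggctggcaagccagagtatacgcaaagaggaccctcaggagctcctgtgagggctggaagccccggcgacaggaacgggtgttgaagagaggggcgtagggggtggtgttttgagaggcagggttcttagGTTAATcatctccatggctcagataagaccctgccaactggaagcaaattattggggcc
Pfkfb3 (chr2:11502091-11502340, minus strand, the downstream of its RefSeq starts): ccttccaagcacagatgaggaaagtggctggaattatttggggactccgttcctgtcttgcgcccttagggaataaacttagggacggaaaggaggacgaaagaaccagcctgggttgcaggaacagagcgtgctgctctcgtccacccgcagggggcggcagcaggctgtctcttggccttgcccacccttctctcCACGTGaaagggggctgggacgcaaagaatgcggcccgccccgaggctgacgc

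The element in the Pklr window, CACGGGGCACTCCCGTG, ended 154 bases before the start site. The consensus was found in 13 of 32851 promoter windows (0.0396%). CACGTG stood in the Khk window from 71 to 66 bases before the start and in the Pfkfb3 window from 53 to 48. These are 2 of the 13 windows, and 6.02% of all windows hold it. GTTAAT stood in the windows of Khk and Gckr and in 1 of 4 Pfkfb1 windows, so in 3 of the 13, against 6.43% of all windows. No match overlapped another. A match is a run of letters and not evidence of binding, and the counts do not show which start site of a gene was used.

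Gckr, Khk, Slc2a2 and Gapdh had lower RNA levels in both KO libraries and Pfkfb3 a higher level, and none of these differences passed the test. Of the 8 genes, 7 had a negative log2 fold change, from -0.79 for Khk to -0.02 for Pfkl, and Pfkfb3 had a positive one of 0.72. Of all tested genes, 49.2% had a negative one. The median of the 8 was -0.50, beside 0.006 over all 13836 genes tested. None of the 8 was called at an adjusted p under 0.05 by edgeR, where 1.91% of all tested genes were called. At an unadjusted p under 0.05 there were 5 of 8, against 13.0% of tested genes. The 8 genes and the lists below were chosen with earlier results of these data known. Their shares beside those of all tested genes are therefore descriptive and do not test the set. DESeq2 called 1 of the 8, Pfkfb3, and 3.72% of the genes it tested. With no filter on low counts 2 were called (Khk and Pfkfb3; 3.70% of all), and with a replicate block 5 (19.7% of all). Leaving out WT replicate 1 gave 2 (Khk and Pklr; 4.42% of all). None was called without WT replicate 2 (3.60% of all), KO replicate 1 (3.23%) or KO replicate 2 (3.56%), nor with DESeq2 size factors (2.04%), library size alone (1.27%) or limma-voom (1.86%). All 8 passed the filter on low counts.

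In 5 of the 8 genes the genotypes did not overlap: Gckr, Khk, Slc2a2 and Gapdh were lower in both KO libraries than in either WT library, and Pfkfb3 was higher. The same held for 20.4% of all tested genes on the lower side and 21.6% on the higher side, 42.0% in all. Pklr, Pfkl and Pfkfb1 overlapped. The plot of levels by library shows these patterns.

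**Figure D1:**
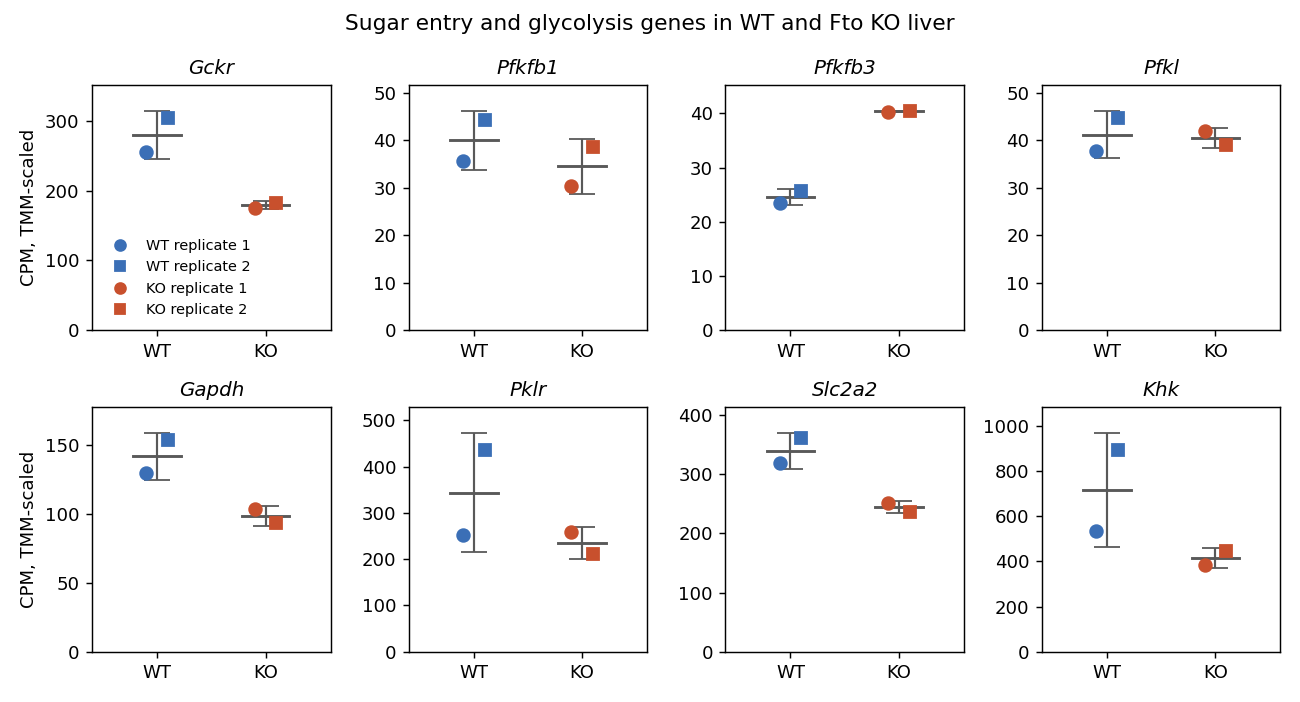
Level of each gene in CPM (vertical axes, from 0) in the WT and KO libraries; circles are replicate 1, squares replicate 2, bars the mean ± SD of 2 libraries. Gckr, Slc2a2, Gapdh and Khk lie lower in both KO libraries and Pfkfb3 higher, while WT replicate 2 stands apart for Khk (894.5 CPM) and Pklr (434.9 CPM).

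Levels were compared between genes after division by exon length (CPM per kilobase of the union of exons in GENCODE M21). In WT the order was Khk at 398.0 ± 141.0, Pklr at 106.2 ± 39.8, Gckr at 64.5 ± 7.96, Slc2a2 at 59.0 ± 5.24, Gapdh at 34.3 ± 4.09, Pfkfb1 at 9.96 ± 1.54, Pfkl at 6.17 ± 0.745 and Pfkfb3 at 3.24 ± 0.199 CPM per kilobase (SD, n = 2 each). Gckr was above Slc2a2 in both WT libraries, at 58.9 and 70.2 against 55.3 and 62.7 CPM per kilobase. In KO it was below in replicate 1 (40.3 against 43.7) and above in replicate 2 (42.2 against 41.1). The KO means were 41.2 ± 1.33 for Gckr and 42.4 ± 1.83 CPM per kilobase for Slc2a2. Pfkl and Pfkfb3 stood close in KO, at 6.07 ± 0.325 and 5.34 ± 0.00613 CPM per kilobase. These orders depend on the length used. Divided by the longest transcript, Gckr stayed above Slc2a2, at 69.7 against 61.0 CPM per kilobase in WT and 44.5 against 43.9 in KO. By that length Pfkl and Pfkfb3 were at 10.87 and 8.41 CPM per kilobase in KO.

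For glucose entry, Slc2a2 (chromosome 3, 28697903 to 28731359, plus strand, mm10) was at 318.4 and 361.0 CPM in WT and 251.7 and 236.8 CPM in KO. Both KO libraries lay below both WT libraries. The log2 fold change was -0.48 (SE 0.172, 95% interval -0.88 to -0.08, adjusted p = 0.285, edgeR), a KO level of 71.9% of WT. Of the summed level per exon length of Slc2a2 and the 10 other listed transporters, Slc2a2 held between 68.2% and 76.7% in every library. Slc2a9, a transporter of urate as well as sugar, followed with between 12.3% and 15.6%. Slc2a1, Slc2a5 (a fructose transporter) and Slc2a8 each held between 3.11% and 8.44%. None of the 6 other tested transporters was called in either direction, and their median log2 fold change was -0.17. The smallest p among them was that of Slc2a3, the neuronal type (log2 fold change -0.91, adjusted p = 0.447).

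Gckr (chromosome 5, 31297443 to 31327314, plus strand) was at 255.4 and 304.2 CPM in WT and 174.7 and 182.9 CPM in KO. The KO libraries were close to each other and below both WT libraries. The difference was -0.65 on the log2 scale (SE 0.178, 95% interval -1.06 to -0.23, adjusted p = 0.149, edgeR), with KO at 63.9% of WT. Within number 1 the log2 ratio of KO over WT was -0.55 and within number 2 it was -0.73.

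Fructose entry showed the largest difference of the 8 genes, with a wide spread within WT. Khk (chromosome 5, 30921431 to 30931248, plus strand) was at 536.0 and 894.5 CPM in WT and 382.5 and 446.3 CPM in KO. The genotypes did not overlap, but the WT libraries lay farther apart than WT replicate 1 did from either KO library. The log2 fold change was -0.79 (SE 0.256, 95% interval -1.38 to -0.19, adjusted p = 0.229, edgeR). It became -1.11 without WT replicate 1 (adjusted p = 0.00515) and -0.38 without WT replicate 2 (adjusted p = 0.784), within a range of adjusted p from 1.30e-04 to 0.784 over 10 alternatives.

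Tkfc, the kinase of glyceraldehyde, a later product of fructose, was at 465.9 and 637.5 CPM in WT and 393.5 and 327.6 CPM in KO. WT replicate 2 was the highest library for Tkfc as for Khk, and both KO libraries lay below WT (log2 fold change -0.61, adjusted p = 0.260, edgeR). The reads of Khk over those of Tkfc, a ratio taken within a library and so free of scaling between libraries, overlapped between genotypes, with 1.151 and 1.40 in WT and 0.972 and 1.36 in KO. This ratio and those of Pfkfb3, Gapdh and Pklr below were picked after the values were seen and have no test.

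**Figure D2:**
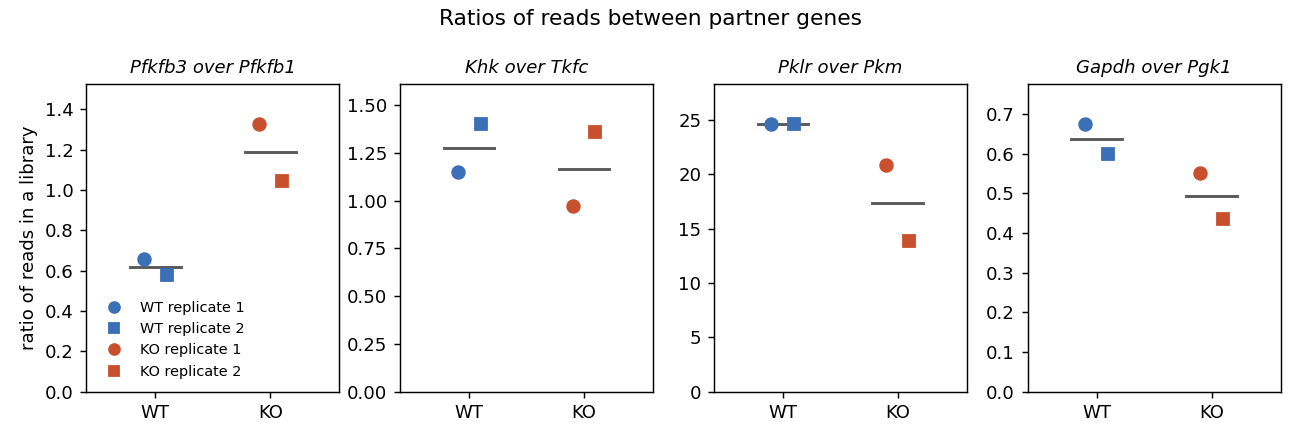
Reads of one gene divided by reads of a partner in the same library (vertical axes, from 0), for WT and KO; circles are replicate 1, squares replicate 2, bars the mean of 2 libraries. The ratio of Pfkfb3 to Pfkfb1 is higher in both KO libraries (1.33 and 1.04 against 0.659 and 0.577), those of Pklr to Pkm and Gapdh to Pgk1 are lower in both, and that of Khk to Tkfc overlaps.

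Khk and Gckr lie on chromosome 5 with 366194 bases and 20 genes between them. Of the 15 tested genes in the interval none was called by edgeR. Their log2 fold changes ran from -1.23 to 2.28 with a median of 0.03, 6 lower and 9 higher.

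At the phosphofructokinase step, no difference was called for the enzyme genes, and the level of Pfkfb3 was higher in both KO libraries. Pfkl, the liver subunit (chromosome 10, 77986947 to 78010083, minus strand), was at 37.7 and 44.7 CPM in WT and 42.1 and 39.01 CPM in KO. Its levels interleaved, at -0.02 on the log2 scale (SE 0.184, adjusted p = 0.983, edgeR). The 95% interval from -0.45 to 0.40 leaves room for differences of that size in either direction. The muscle-type Pfkm was transcribed at a similar level per exon length, 6.25 ± 0.156 against 6.17 ± 0.745 CPM per kilobase for Pfkl in WT (SD, n = 2). Over the longest transcript in place of the union of exons, Pfkl came to 11.05 CPM per kilobase and Pfkm to 7.25. The platelet-type Pfkp held between 0.924% and 1.09% of the family. Pfkm and Pfkp were lower in KO without overlap, as were 20.4% of all tested genes. Their log2 fold changes were -0.15 and -0.23 (adjusted p = 0.820 and 0.838, edgeR).

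Pfkfb3 (chromosome 2, 11471433 to 11554077, minus strand), whose product favours making fructose 2,6-bisphosphate, was at 23.5 and 25.6 CPM in WT and 40.3 and 40.4 CPM in KO. The KO libraries were nearly equal and both above WT. The log2 fold change was 0.72 (SE 0.177, 95% interval 0.31 to 1.13, adjusted p = 0.106, edgeR), 1.65-fold higher in the fit. It was between 0.66 and 0.77 when any 1 library was left out, with adjusted p from 0.166 to 0.259. DESeq2 called it (adjusted p = 0.0470), as did edgeR with no filter on low counts (adjusted p = 0.0299), and adjusted p ran from 1.73e-05 to 0.259 over 10 alternatives. The Kupffer cell markers given above moved the same way as Pfkfb3, and their part in this difference was not tested.

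Pfkfb1, the liver isoform (chromosome X, 150588229 to 150643878, plus strand), was at 35.6 and 44.4 CPM in WT and 30.4 and 38.7 CPM in KO. The genotypes overlapped (log2 fold change -0.21, SE 0.210, 95% interval -0.70 to 0.27, adjusted p = 0.766, edgeR). The reads of Pfkfb3 over those of Pfkfb1 were 0.659 and 0.577 in WT and 1.33 and 1.04 in KO. Per exon length Pfkfb1 stayed the commonest of the 4 isoforms in every library, with between 41.5% and 62.6% of the family. The share of Pfkfb3 was 18.6% and 19.2% in WT and 29.3% and 27.9% in KO, and Pfkfb2 held between 17.7% and 28.8%. Pfkfb4 held between 0.519% and 0.963%.

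**Figure D3:**
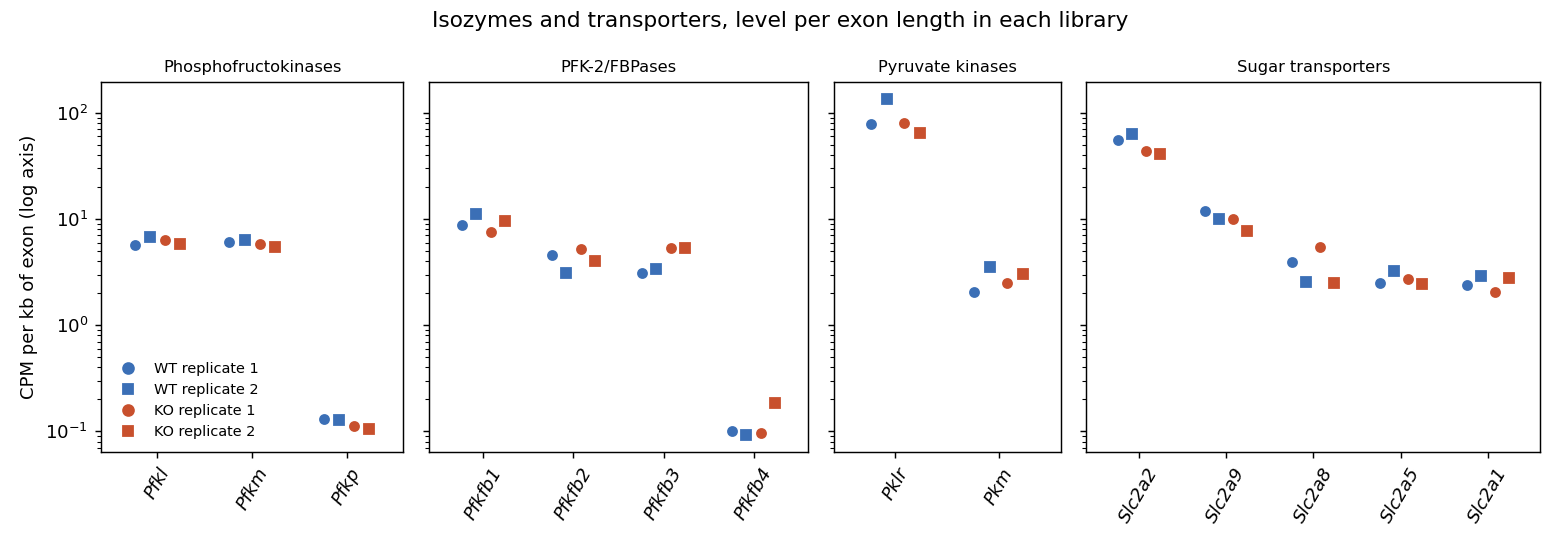
Level per kilobase of exon (vertical axis, log scale) of isozymes and transporters in each library; circles are replicate 1, squares replicate 2, blue WT, red KO. Pklr and Slc2a2 stand far above the other genes of their families in all 4 libraries, while Pfkl and Pfkm lie together and Pfkfb3 lies higher in KO.

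Gapdh, which oxidises glyceraldehyde 3-phosphate and is often used as a reference gene (chromosome 6, 125161715 to 125166467, minus strand), was at 129.7 and 153.6 CPM in WT and 103.3 and 93.0 CPM in KO. Both KO libraries were below WT. The log2 fold change was -0.53 (SE 0.181, 95% interval -0.95 to -0.11, adjusted p = 0.256, edgeR). Relative to Pgk1, the kinase of the next step, Gapdh stood at 0.675 and 0.5999 reads per read in WT and 0.551 and 0.436 in KO. Pgk1 itself had a log2 fold change of -0.16, whose sign changed without WT replicate 2 (0.05). Reads shared with Gapdh pseudogenes may be lost in counting, so the level of Gapdh is uncertain.

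Pklr (chromosome 3, 89136142 to 89146784, plus strand) was at 252.7 and 434.9 CPM in WT and 258.6 and 210.7 CPM in KO. WT replicate 2 alone stood above the rest, and WT replicate 1 lay within the KO range. The log2 fold change of -0.55 (SE 0.269, 95% interval -1.18 to 0.07, adjusted p = 0.452, edgeR) became -0.89 without WT replicate 1 (adjusted p = 0.0447) and -0.12 without WT replicate 2 (adjusted p = 0.984), and adjusted p lay between these over 10 alternatives. Within number 1 the log2 ratio was 0.03 and within number 2 it was -1.05. Pkm, the pyruvate kinase of most other tissues, held between 2.56% and 4.45% of the family's reads per exon length. The reads of Pklr over those of Pkm were 24.64 and 24.60 in WT and 20.8 and 13.9 in KO.

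Pklr is also transcribed in red blood cells, from a separate promoter, and red cell markers were lower in KO as given above; their part in the level of Pklr was not tested. Hcn3, a channel gene on the opposite strand whose exons overlap those of Pklr, was counted at 740 and 834 reads (WT) and at 2235 and 822 reads (KO). These libraries do not mark the strand. Exons of Apex2 overlap Pfkfb1 and exons of Iffo1 overlap Gapdh in the same way, and both had at most 440 reads in any library.

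**Figure D4:**
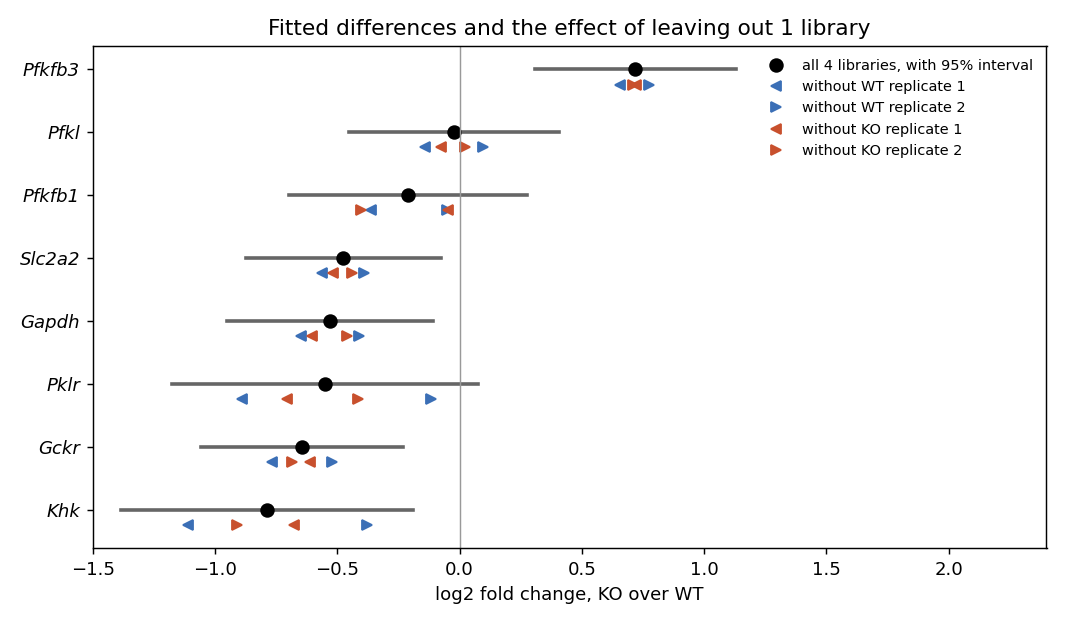
Log2 fold change of KO over WT (horizontal axis) for each gene; black points with grey bars are the fit on 4 libraries with its 95% interval, triangles the fits with 1 library left out. Leaving out a WT library moves Khk (from -1.11 to -0.38) and Pklr (from -0.89 to -0.12) the most, and Pfkfb3 stays between 0.66 and 0.77.

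Around the 8 genes, 113 other genes on 9 lists of sugar metabolism were tested. None was called higher and 3 were called lower, against 0.961% and 0.947% of all tested genes. The median log2 fold change of the 113 was -0.12. The 3 genes were Slc16a7, a transporter of pyruvate and lactate (51.2 ± 5.65 CPM in WT and 26.4 ± 0.805 in KO, SD, n = 2 each, log2 fold change -0.96, adjusted p = 0.0478, edgeR), and the lipogenic genes Scd1 (-1.66, adjusted p = 0.0245) and Me1 (-1.43, adjusted p = 0.0179). The call of Slc16a7 was lost on scaling by library size alone (adjusted p = 0.0734) and on leaving out WT replicate 2 (0.0634), KO replicate 1 (0.0601) or KO replicate 2 (0.0918).

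Among 20 other tested glycolytic enzymes and isozymes none was called, 14 had a negative log2 fold change and the median was -0.15. The smallest p-values were those of Aldoc (log2 fold change 0.77, adjusted p = 0.218), Eno1 (-0.52, adjusted p = 0.298) and Hk3 (0.55, adjusted p = 0.447). Aldoc is the brain-type aldolase, Eno1 an enolase and Hk3 a hexokinase of myeloid cells. Of the 20 tested genes that handle pyruvate and lactate, 14 were negative and the median was -0.24. Next to Slc16a7 stood Pdk1, an inhibitor kinase of pyruvate dehydrogenase, at 127.2 and 145.8 CPM in WT and 76.3 and 74.4 CPM in KO (log2 fold change -0.86, adjusted p = 0.0588, edgeR). Its KO libraries lay far below both WT libraries and it just missed the threshold.

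Gpd1, which turns a glycolytic intermediate into glycerol 3-phosphate, was at 613.1 and 668.6 CPM in WT and 336.8 and 375.0 CPM in KO (log2 fold change -0.85, adjusted p = 0.0580, edgeR). It lay on the list of 13 tested genes that branch from glycolysis, none of them called, with a median of 0.08. Tkt and Pgd of the pentose phosphate pathway had log2 fold changes of -0.57 and -0.61 (adjusted p = 0.305 and 0.342). On the list of 11 fructose and polyol genes, none called and with a median of -0.29, the aldose reductase gene Akr1b3 had a log2 fold change of 1.004 (adjusted p = 0.0987, edgeR) and Akr1a1, a reductase of related substrates, -0.42 (adjusted p = 0.432). Of 5 genes that control the phosphofructokinase step none was called (median 0.26), with Tigar, a phosphatase of fructose 2,6-bisphosphate, at 0.54 (adjusted p = 0.324). Fbp2 was counted at only 11 and 11 reads (WT) and 5 and 6 reads (KO). The fructose bisphosphatase genes Fbp2 and Fbp1 had log2 fold changes of -1.08 and -0.29 (adjusted p = 0.557 and 0.639).

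Regulators of these genes were tested on a list of 22, with none called and a median of 0.12. Mlxipl, which encodes ChREBP, was at 527.3 and 451.8 CPM in WT and 511.0 and 491.3 CPM in KO. Its levels interleaved, at 0.03 on the log2 scale (SE 0.173, adjusted p = 0.9746, edgeR). The largest value on the list was that of the liver factor Onecut1, which was counted at 123 and 62 reads (WT) and at 566 and 215 reads (KO) (log2 fold change 1.96, adjusted p = 0.0806, edgeR). Foxa3 followed with 0.89 (adjusted p = 0.127) and Ppargc1a with -0.69 (adjusted p = 0.219). Of 7 genes of gluconeogenesis none was called, with a median of -0.13, and G6pc, which releases glucose, had -0.57 (adjusted p = 0.249). Pcx, the pyruvate carboxylase, had -0.49 (adjusted p = 0.293) and the mitochondrial Pck2 0.91 (adjusted p = 0.406).

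Of 16 tested targets of ChREBP other than Pklr and Khk, Scd1 and Me1 were called lower and none higher. Of all tested genes, 0.947% were called lower and 0.961% higher. The log2 fold changes of the 16 ran from -3.01 to 0.97, with a median of -0.50. WT replicate 2 was the highest of the 4 libraries for 10 of these 16 and for 7 of the 8 genes described here, and for 28.6% of all tested genes. The lipogenic factor Thrsp, picked after its values were seen, was at 192.5 and 753.9 CPM in WT and 104.8 and 118.2 CPM in KO. Its log2 fold change of -2.09 (adjusted p = 0.138, edgeR) became -0.80 without WT replicate 2 and -2.76, then called, without WT replicate 1. As with Khk and Pklr, the size of its difference rests on WT replicate 2.

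**Figure D5:**
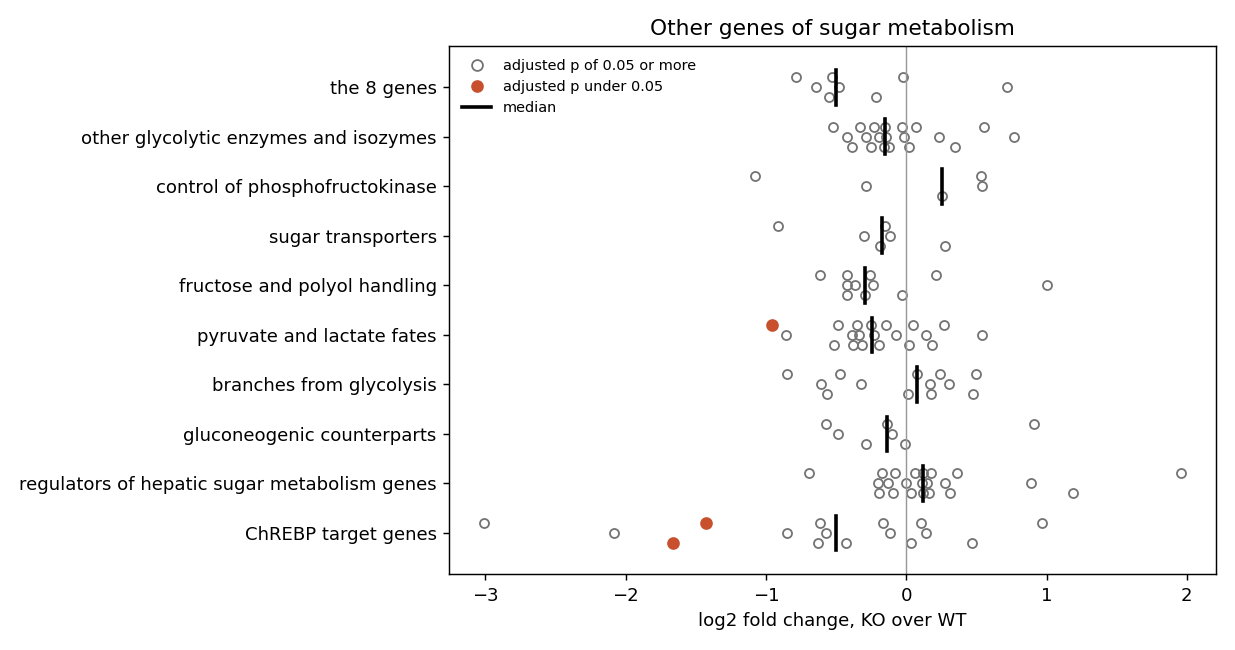
Log2 fold change of KO over WT (horizontal axis) for each tested gene of the lists named on the vertical axis; filled red points have an adjusted p under 0.05, open points do not, and black bars are medians. The 8 genes have a median of -0.50, the 3 filled points are Slc16a7, Scd1 and Me1, and medians of the other lists lie between -0.50 and 0.26.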

How the data were processed

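Liver RNA of 2 WT and 2 KO libraries was sequenced in paired reads on a HiSeq3000 after poly(A) selection and a TruSeq v2 preparation, which does not mark strand, per the labels' protocols. The authors deposited raw counts of reads per gene; per the submitters' processing notes these came from TopHat2 2.1.1, HTSeq 0.6.0 and build mm10, and no source used here gives the annotation or counting options. Symbols and positions are from GENCODE M21 (35449 of 37315 identifiers matched). Library totals were 41332870 and 39549592 (WT) and 44689114 and 40947808 (KO), so 1 read is 0.0224 to 0.0253 CPM before scaling by TMM.

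From the deposited counts, genes were filtered with filterByExpr (minimum count 10, minimum total 15), scaled by TMM and tested with the two-sided quasi-likelihood F test of edgeR 4.0.16 in R 4.3.3, with genotype as the only term and Benjamini-Hochberg adjustment over all genes. Calls required an adjusted p under 0.05. SE was obtained from the F statistic as log2 fold change over root F, and 95% intervals use the same degrees of freedom. Alternatives were DESeq2 1.42.0, limma-voom (limma 3.58.1), other scalings, no filter, a replicate block and leaving out each library. Every pair of libraries differed by more than sampling noise (chi-square per degree of freedom at least 86.5).

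The members and lists were chosen with earlier results of these data known. Named are the 8 genes, Fto, the called genes and the 3 of smallest p on each list, and isozymes of each family; some results on related genes are not reported here. Others are marked as picked after their values were seen.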

Additional observations from a re-analysis of the deposited data

How the results depend on the processing

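The number of the 8 genes called was 0 with edgeR, with DESeq2 size factors, with library size alone and with limma-voom. Without a low-count filter it was 2 (Khk and Pfkfb3), 1 with DESeq2 (Pfkfb3) and between 0 and 2 when 1 library was left out, the 2 being Khk and Pklr without WT replicate 1. A replicate block gave 5 (Gckr, Slc2a2, Khk and Gapdh lower, Pfkfb3 higher), where 19.7% of all tested genes were called; nothing in the labels ties equal numbers to one animal or batch, and the deviations of replicate 2 from replicate 1 correlated across genes between the genotypes with r = 0.536. Over all genes the count of 264 became 829 with no filter, 559 with DESeq2, 2729 with the replicate block and 460 to 633 when 1 library was left out. Of the other genes on the lists, 3 became 12 with no filter, 8 with DESeq2, 37 with the replicate block and 5 to 11 when 1 library was left out. When 1 library was left out, uncalled values changed sign for Pfkl (-0.14 to 0.10), Slc2a8 (-0.38 to 0.72) and Pgk1 (-0.35 to 0.053). With all 4 libraries the log2 fold change of Slc2a8 was 0.28 (SE 0.371). The other 7 of the 8 genes kept their sign under all 10 alternatives. Each of the 8 genes had at least 974 reads in every library.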
